A study of Homo sapiens with 6 samples.

Results

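The mRNAs described here encode the proteins of the small (40S) subunit of the human cytoplasmic ribosome. They were taken by gene symbol as RPS followed by digits, with RPSA, FAU and GNB2L1 (now named RACK1), and with pseudogenes left out. The rule gives 36 annotated genes among 19358 coding genes, and 25 of the 36 had at least 1 TRMT10A CLIP cluster or m6A peak. Over all 19358 coding genes, 9120 had an exon cluster or an m6A peak. Of the 25 members, 17 were listed in CLIP replicate 1, 18 in CLIP replicate 2 and 14 in the m6A table.

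All 6 samples came from HEK293T, an established human embryonic kidney cell line. N6-methyladenosine (m6A) was mapped with 1 m6A-immunoprecipitated and 1 input library after siRNA labelled TRMT10A KD, and with 1 of each after siRNA labelled Ctrl KD, where KD stands for knockdown. TRMT10A CLIP, in which RNA crosslinked to the protein is recovered with it and sequenced, was done in 2 replicates, whose siRNA label reads TRMT10A without further detail. No control immunoprecipitation was analysed here, so CLIP counts describe abundance in these libraries and not enrichment over cellular RNA, and nothing in the labels says that the replicates came from separate cultures.

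A small subunit binds the mRNA, holds the decoding centre where codon and anticodon are matched, and has a head and a body between which the mRNA is threaded. Its protein mRNAs are abundant and short, and most begin with a terminal oligopyrimidine (TOP) tract through which their translation is controlled together. TRMT10A is a methyltransferase of the nucleus and nucleolus known for modifying a guanosine of tRNAs. Many introns of ribosomal protein genes hold small nucleolar RNAs (snoRNAs), which guide modification of ribosomal RNA.

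The CLIP tables list clusters, short stretches of a transcript with a count of conversion events, with at least 2 events in every listed cluster. Conversion events are, in some CLIP protocols, base changes at crosslinked positions, and the sources used here do not give the kind of change. In 12 of the 36 genes, a cluster of replicate 1 and a cluster of replicate 2 shared at least 1 base. The sequences below are shown because they are among the sites found in both libraries, the closest these data come to a repeated contact. Each is read 5′ to 3′ on the transcript from GENCODE release 29 (hg38) and is at most 30 bases long. Capitals mark the bases shared by 1 pair of overlapping clusters, with 1 cluster from each replicate. Bases in lower case can be shared by another such pair. All lie in coding sequence.
GNB2L1 site 1 (chr5:181242174-181242203, minus strand): tGGAACCCTGCGCCTCTGGGATCTCACAac
GNB2L1 site 2 (chr5:181239487-181239516, minus strand): gtctcctgtgGCTGGGACAAGCTGGTCAAg
GNB2L1 site 3 (chr5:181239098-181239127, minus strand): aggcTATCTGAACACGGTGACTGTCTCTcc
RPS23 site 1 (chr5:82276188-82276217, minus strand): aGGTCATGCTGTTGGTGATATTCCTGGAgt
RPS23 site 2 (chr5:82276426-82276455, minus strand): gaatgGCAAGAAAATCACAGCCTTtgtacc
RPS23 site 3 (chr5:82276401-82276422, minus strand): tgacggTTGCTTGAACTTTATT
RPS2 (chr16:1962591-1962620, minus strand): ATCCCTGCACCCAGGGGCACTGGCATCGTC
RPS15 (chr19:1438872-1438890, plus strand): ccAGCTGCTGGACATGTCc
RPS27A (chr2:55235464-55235493, plus strand): gagtgccCTTCTGATGAATGTGGTgctggg
RPS3 (chr11:75400751-75400779, plus strand): gctgaAGATGGCTACTCTGGAGTTGAGGt
RPS19 (chr19:41869057-41869086, plus strand): cgGGGTGGCGCTGGGGTTGGCTCCATGAcc
RPSA (chr3:39411954-39411981, plus strand): gtgaatggactgcTCCCGCTCCtgagtt
RPS6 (chr9:19376544-19376573, minus strand): TTGCTCTGAAGAAGCAGCGTACCAAGAAAA
RPS4X (chrX:72275093-72275122, minus strand): gaatttccGTCTGATCtatgacaccaaggg

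The first question was how much of the mRNA signal of TRMT10A CLIP lay on these genes. Small-subunit mRNAs held 162 of 1615 events on mRNA exons in replicate 1, or 10.0% (95% Wilson interval 8.66 to 11.6). In replicate 2 they held 287 of 2819 events, or 10.2% (9.12 to 11.4), so the replicates averaged 10.1% ± 0.106 (SD, n = 2). The mRNA exons exclude histone genes, and the intervals cover counting error only. Large-subunit ribosomal protein mRNAs, the most similar gene set, held 20.7% (18.8 to 22.7) in replicate 1 and 13.4% (12.2 to 14.7) in replicate 2. The small-subunit share thus differed less between replicates than the large-subunit share. Against all 342690 and 496030 conversion events of the libraries, most of which lay outside mRNA exons, the small-subunit mRNAs held 0.0473% in replicate 1 and 0.0579% in replicate 2.

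An exon cluster was listed in both replicates for 13 of the 36 genes (36.1%), against 0.92% of all coding genes. Among coding genes in the members' range of coding length (168 to 951 bases) the share was 1.24%. With at least 5 events per cluster 5 of the 36 were listed in both, and with at least 10 events 3 were. The shares over all coding genes at these minimums were not worked out, so 0.92% and 1.24% do not apply to them. The tables give no expression level, so whether the members' abundance accounts for their listing was not tested. In replicate 1, 17 of the 36 were listed, 4 of them there alone, against 1.53% of coding genes. In replicate 2, 18 were listed, 5 of them there alone, against 2.62%. The remaining 14 genes had no cluster, and no member was listed through clusters that the file places in introns alone. For RPS3A, the single cluster that the file places in the 3′ UTR lay outside the exons of the transcript used here, on a snoRNA gene. All members' clusters were listed under 1 gene each.

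**Figure D1:**
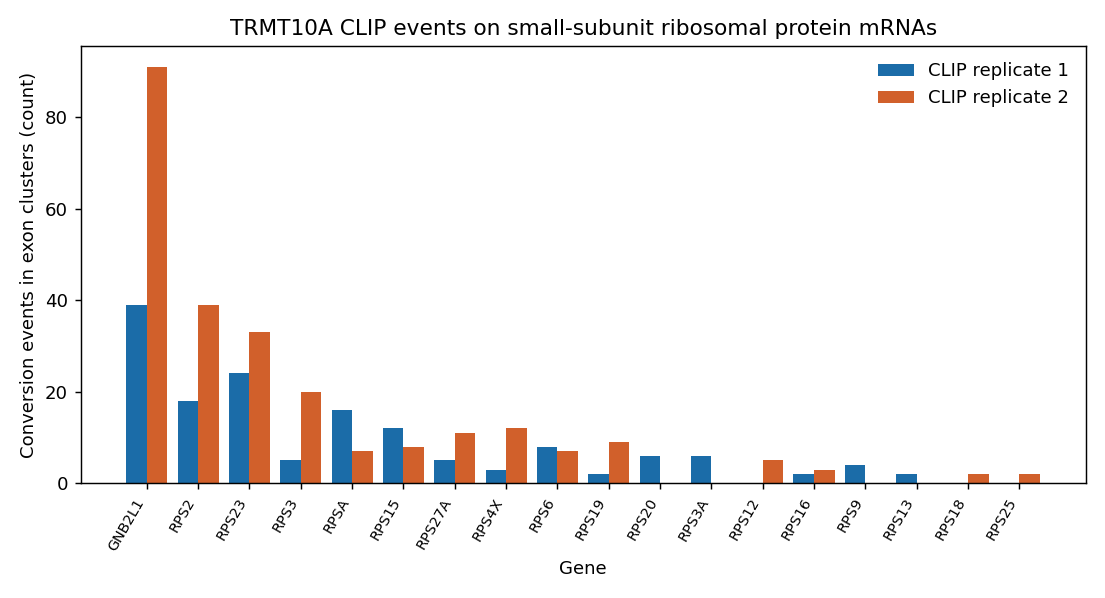
Conversion events in exon clusters (count, vertical axis) of 18 small-subunit genes with a cluster, in CLIP replicate 1 and replicate 2, 1 bar per replicate with no error bar. GNB2L1 is the tallest in both replicates with 39 and 91 events, and 7 genes have a bar in 1 replicate only.

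Of 15 proteins of the head, 8 had mRNAs listed in both replicates, 4 in 1 replicate and 3 in neither. GNB2L1, a WD-repeat scaffold on the back of the head near the mRNA exit, was the member with the most signal, with 39 events in 8 clusters of replicate 1 and 91 events in 12 clusters of replicate 2. This was 24.1% (18.1 to 31.2) of member events in replicate 1 and 31.7% (26.6 to 37.3) in replicate 2. Among the 150 genes other than histones listed in both replicates, 4 had more events than GNB2L1 in replicate 1 and 1 did in replicate 2. Per kilobase of coding sequence, GNB2L1 had 41.0 and 95.7 events.

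Counted from the A of the start codon, the GNB2L1 clusters of replicate 1 ended by coding base 603 of 951. Those of replicate 2 lay mostly up to base 630. Clusters of 2 and 3 events, at coding bases 729 to 766 and 905 to 929, were listed in replicate 2 only. Site 1 of GNB2L1, at coding bases 252 to 281, held 12 events in replicate 1 and 28 in replicate 2, the most of any member cluster in replicate 2. Site 2, at coding bases 496 to 525, held 5 and 13 events, and site 3, at coding bases 576 to 605, held 4 and 9. All 3 sites thus had more events in replicate 2. A cluster over the GNB2L1 start codon was present in both replicates, with 3 and 5 events. Among clusters inside 1 exon of the transcript used here, no other covered a start codon. An 11-event cluster of replicate 2, at chr5:181242320-181242353, lay 26 bases inside an exon and 8 bases outside it, and no cluster of replicate 1 overlapped it.

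RPS15, RPS3 and RPS27A also lie in the head. RPS15, whose tail reaches toward the decoding centre, had 12 events in 1 cluster of replicate 1 and 8 events in 2 clusters of replicate 2. The 12-event cluster was matched by 4 events over nearly the same bases. RPS3, which lines the mRNA entry channel, had 5 events in 1 cluster and 20 events in 5 clusters. Its shared site held 5 and 4 events, and most of the excess in replicate 2 came from clusters further along the coding sequence, with 5 events at chr11:75404097-75404125 and 6 at chr11:75404149-75404189. RPS27A, made as a fusion of ubiquitin with the ribosomal protein, had 5 events in 1 cluster and 11 events in 2 clusters, of which 5 and 9 were at the shared site.

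Among the other head proteins, RPS19, needed for maturation of the small-subunit rRNA and mutated in Diamond-Blackfan anaemia, had 2 events in 1 cluster and 9 events in 3 clusters. RPS16, whose tail reaches the tRNA in the peptidyl site, had 2 and 3 events, at different places in the 2 replicates, and is the 1 gene of the 13 with no shared base.

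The head proteins listed in 1 replicate were RPS20 with 6 events in replicate 1, and RPS12 with 5, RPS18 with 2 and RPS25, known for its part in internal initiation by viral RNAs, with 2 in replicate 2. The RPS12 events lay in a cluster of 3 events placed in the 5′ UTR and a coding cluster of 2. RPS10, RPS28 and RPS29 were not listed. RPS28 and RPS29 have short coding sequences, of 207 and 168 bases.

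Of 18 body proteins, 5 had mRNAs listed in both replicates, 5 in 1 replicate and 8 in neither. RPS23, a protein of the decoding centre, had 24 events in replicate 1 and 33 in replicate 2, in 3 clusters each. Every RPS23 cluster overlapped a cluster of the other replicate. Site 1 of RPS23, at coding bases 324 to 353, held 11 and 14 events, site 2 held 7 and 13, and site 3 held 6 and 6. The same 3 places thus carried the signal in both libraries. Per kilobase of coding sequence RPS23 had 55.9 and 76.9 events, above GNB2L1 in replicate 1 and below it in replicate 2. Among the 150 genes, 10 had more events than RPS23 in each replicate.

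RPS2, which lines the mRNA entry channel with RPS3, had 18 events in 3 clusters of replicate 1 and 39 events in 7 clusters of replicate 2. All 3 clusters of replicate 1 were found again. The RPS2 site shown, at coding bases 586 to 615, held 10 and 9 events. The excess in replicate 2 lay elsewhere, chiefly in a 17-event cluster at chr16:1962767-1962797 that replicate 1 did not list. GNB2L1, RPS23 and RPS2 together held 50.0% of member events in replicate 1 and 56.8% in replicate 2.

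RPSA, which also exists as a laminin receptor, had 16 events in 4 clusters of replicate 1 and 7 events in 3 clusters of replicate 2. RPSA, RPS15 and RPS6 were the members listed in both that had fewer events in replicate 2. The largest RPSA cluster of replicate 1, 7 events at chr3:39412011-39412047, was not found again, and the shared site held 3 and 2 events. RPS6, the substrate of S6 kinase downstream of mTOR, had 8 and 7 events in 3 clusters each. The RPS6 site shown held 3 events in each replicate. RPS4X, the X-linked copy of the S4 protein, had 3 events in 1 cluster and 12 events in 5 clusters, with 3 and 2 at the shared site.

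The body proteins listed in 1 replicate included RPS3A with 6 events, RPS9, which lies at the mRNA entry, with 4 and RPS13 with 2, all in replicate 1. The RPS3A cluster, placed in the 3′ UTR by the file, overlapped the snoRNA gene SNORD73A and lay wholly outside the exons of the RPS3A transcript used here. FAU, RPS7, RPS14, RPS15A, RPS21, RPS24, RPS26 and RPS27 were not listed, nor were the paralogs RPS27L, RPS4Y1 and RPS4Y2. Among these, RPS14 lies on the platform of the subunit and RPS26 beside the mRNA exit, and FAU encodes its ribosomal protein as a fusion with a ubiquitin-like protein.

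**Figure D2:**
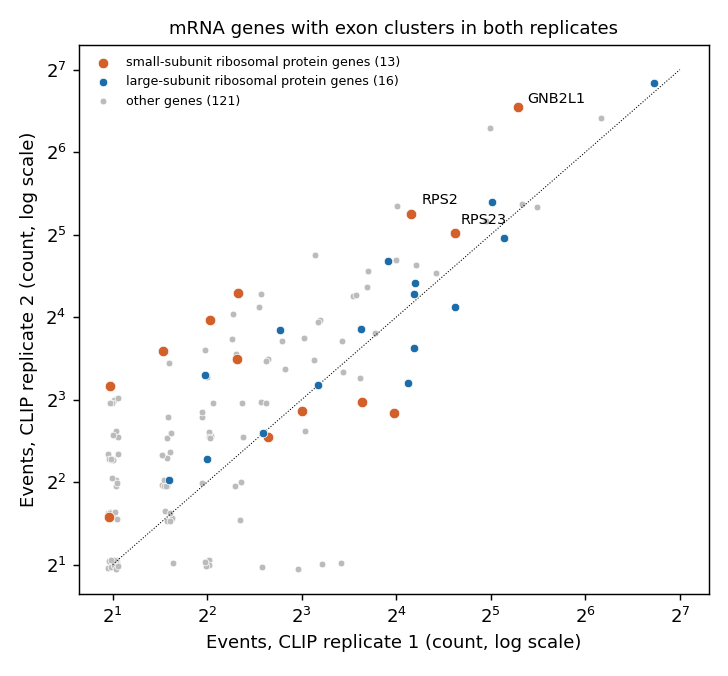
Conversion events per gene in CLIP replicate 1 (horizontal axis) and replicate 2 (vertical axis), both on log scales, for genes with an exon cluster in both replicates, with small-subunit genes in orange, large-subunit genes in blue, points shifted slightly so that ties can be seen, and a dotted line at equal counts. GNB2L1 lies at 39 and 91 events, RPS23 at 24 and 33, and RPS16 at 2 and 3.

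Across the 13 genes listed in both replicates, 9 had more events in replicate 2, the library with more mRNA events in all. Events per gene correlated between the replicates with Pearson's r = 0.675 on the log2 scale and Spearman's rho = 0.452 (n = 13 genes). Without GNB2L1 these were 0.515 and 0.302 (n = 12). The genes share both libraries and are not independent, so the correlation is a description. The order of the genes below GNB2L1 is therefore not well fixed by these counts. The 13 genes had medians of 6 and 11 events in replicates 1 and 2. All genes listed in both replicates had medians of 4 and 6, and the large-subunit genes among them 16.5 and 14.

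Nearly all clusters on these mRNAs lay in coding sequence. In replicate 1, 33 of 35 member clusters (94.3%, interval 81.4 to 98.4) did, against 67.0% (62.4 to 71.3) of all mRNA exon clusters. In replicate 2, 57 of 59 (96.6%, 88.5 to 99.1) did, against 67.6% (64.2 to 70.7). The totals over all mRNAs include the members' clusters. Clusters are not replicates of a condition, so no test was made. The members' UTRs are short, and whether UTR length accounts for the difference was not tested. The clusters outside coding sequence included those named above for RPS3A and RPS12, and 1 of 2 events in the 3′ UTR of RPS4X.

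Within the coding sequence the clusters had no single preferred position. Their median relative place, with 0 at the start codon and 1 at the stop codon, was 0.538 in replicate 1 and 0.535 in replicate 2. Dividing the coding sequence into 3 equal parts from its start gave 12, 9 and 10 clusters in replicate 1 and 17, 22 and 15 in replicate 2. Single genes differed. The shared site lay early in RPS15 and RPS3, from coding bases 69 and 88, and late in others, from base 358 of 468 in RPS27A and 686 of 885 in RPSA.

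**Figure D3:**
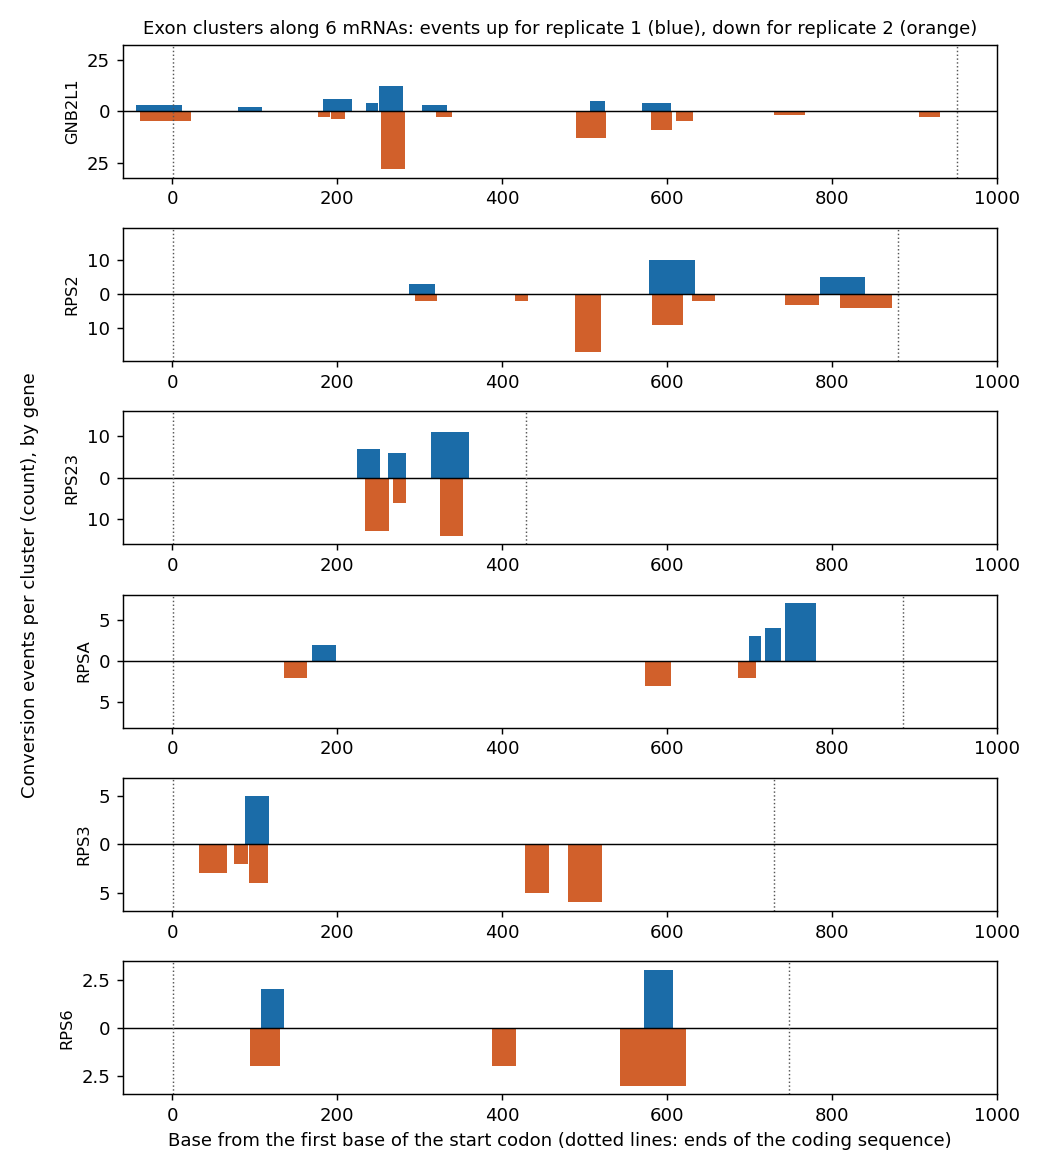
CLIP clusters along 6 small-subunit mRNAs (horizontal axis, bases from the start codon, dotted lines at the ends of the coding sequence), with conversion events per cluster (count) drawn upward for replicate 1 and downward for replicate 2, and clusters that cross an exon border left out. RPS23 has 3 clusters per replicate at the same 3 places, while those of GNB2L1 are spread over more places, mostly in the first 630 of its 951 coding bases.

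Many of the clusters were found in both libraries. In replicate 1, 22 of 35 member clusters (62.9%, interval 46.3 to 76.8) overlapped a cluster of replicate 2, against 40.7% of all mRNA exon clusters. In replicate 2, 27 of 59 (45.8%, 33.7 to 58.3) overlapped a cluster of replicate 1, against 23.5%. Members' clusters were also larger, with medians of 4 and 3 events against 2 and 2, and clusters with more events were found again more often. Among clusters of 2 events, 3 of 9 on members were found again in replicate 1, against 58 of 219 over all mRNAs, and 7 of 19 in replicate 2, against 50 of 444. Among clusters of 3 to 4 events, the counts were 8 of 12 against 65 of 141 in replicate 1, and 10 of 22 against 67 of 241 in replicate 2. The members' share was thus higher in both replicates for clusters of 2 to 4 events. Among clusters of 5 to 9 events, 7 of 10 were found again in replicate 1, against 37 of 51, and 6 of 12 in replicate 2, against 48 of 81, so the members' share was not higher there. Among clusters of 10 or more events, the counts were 4 of 4 against 15 of 19 in replicate 1, and 4 of 6 against 21 of 26 in replicate 2, and the direction differed between the replicates. The 28 overlapping pairs shared a median of 18 bases, with a range of 2 to 51.

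The base makeup of the clusters was close to that of the coding sequence around them. T made up 24.9% of bases in members' clusters of replicate 1 and 22.3% in replicate 2, against 21.1% in the 12711 coding bases of the members with a cluster. G and C together made up 56.0% and 55.6%, against 52.3%. Every cluster with a sequence, 35 in replicate 1 and 58 in replicate 2, held at least 2 T. The sites shown differ in this: site 1 of RPS23 holds 11 T in its 30 bases and site 3 holds 10 in 22, while the RPS15 site holds 4 in 19.

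Gene length and copy number were set beside the listing. Genes listed in both replicates had a median coding length of 612 bases (405 to 951), those listed in 1 replicate 456 (357 to 792), and those in neither 394.5 (168 to 789). The ranges overlap, but no gene under 357 coding bases had a cluster. Ribosomal protein genes have many processed pseudogenes that share sequence with them, so reads can be lost or split. Genes listed in both replicates had a median of 9 named pseudogenes (0 to 74), those in 1 replicate 4 (1 to 38) and those in neither 6.5 (0 to 32). RPSA had the most, 74, and GNB2L1 had 0. Pseudogenes of RPSA also had clusters. RPSAP58 had 7 events in replicate 1 and 2 in replicate 2, and RPSAP9 had 2 and 8, so RPSA's own counts are uncertain to that extent.

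**Figure D4:**
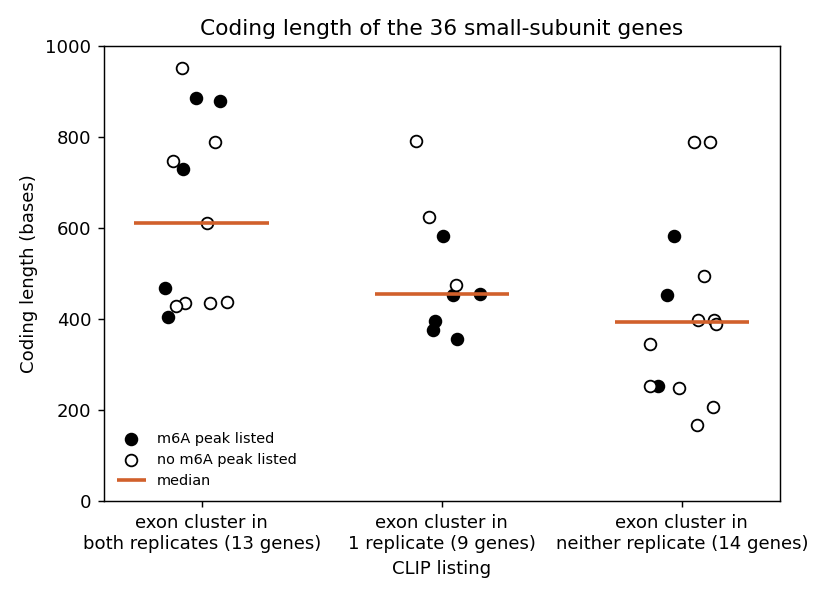
Coding length (bases) of the 36 small-subunit genes by whether an exon cluster was listed in both CLIP replicates, in 1 or in neither, 1 point per gene, filled where an m6A peak was listed, with bars at the medians. The medians are 612, 456 and 394.5 bases, and the ranges overlap.

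The introns of the same genes hold snoRNAs, some of which carried more events than the host's exons. Of 21 snoRNA genes inside 10 members on the same strand, 10 had a cluster in both replicates, in 7 hosts, against 23.2% of 367 snoRNA genes inside coding genes. They comprised 7 of 16 C/D snoRNAs, which guide ribose methylation, and 3 of 5 H/ACA snoRNAs, which guide pseudouridylation. Together the snoRNA genes inside members held 126 events in replicate 1 and 196 in replicate 2. The 126 include the 6 events of the RPS3A cluster on SNORD73A, which the file lists as 3′ UTR and which also count among the 162 exon events of replicate 1. SNORA64, inside RPS2, held more of them than any other, with 76 and 92 events, more than the 18 and 39 on the RPS2 exons.

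The stretches of SNORA64 and of SNORA62, an H/ACA snoRNA inside RPSA, that clusters of both replicates covered are shown in full capitals, since they carry the most events within the members' introns.
SNORA64 (chr16:1963065-1963089, minus strand): TAGTTGCACTTGGCTTCACCCGTGT
SNORA62 (chr3:39411119-39411131, plus strand): GTGTGCTACATGA

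SNORA62 had 9 and 19 events, and SNORA6, also inside RPSA, had 6 and 13, so each had fewer events than the RPSA exons in replicate 1, where these had 16, and more in replicate 2, where they had 7. Among the C/D snoRNAs, SNORD15A inside RPS3 had 5 and 16 events, and SNORD101 inside RPS12 had 3 and 17. RPS12 and RPS13 were thus hosts of snoRNAs found in both replicates while their exons were listed in 1. GNB2L1 was the reverse, with 2 and 5 events on SNORD96A and 2 and 2 on SNORD95, against 39 and 91 on its exons. High exon signal and high snoRNA signal therefore did not go together in every host.

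**Figure D5:**
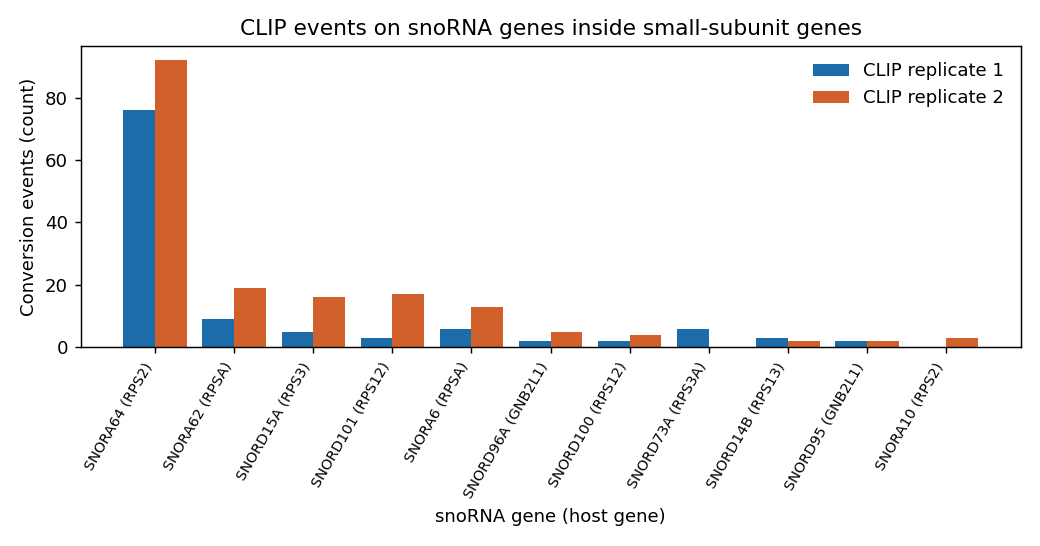
Conversion events (count, vertical axis) in clusters on 11 of the snoRNA genes inside small-subunit genes that had a cluster, in CLIP replicate 1 and replicate 2, with the host gene in brackets. SNORA64 stands above all others with 76 and 92 events.

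The m6A table lists peaks on transcripts and the change of each between TRMT10A KD and Ctrl KD. Its gene columns and ratio columns were sorted separately, so no ratio is given for a gene here, and with 1 library per arm and kind there was no replicate check. A peak was listed for 14 of the 36 genes (38.9%), against 46.6% of all coding genes and 38.7% of those in the members' range of coding length. The members' share was thus close to that of genes of like length. They included the head proteins RPS3, RPS12, RPS18, RPS20, RPS25 and RPS27A, the body proteins RPS2, RPS7, RPS9, RPS13, RPS14 and RPSA, and the paralog RPS27L.

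Each of the 14 had exactly 1 peak, against 28.4% of the coding genes in the table and 48.5% of those in the members' range of coding length. The peaks had a median length of 137.5 bases (100 to 289), against 175 over all 26475 peaks. The longest was on RPSA, at transcript bases 679 to 967, and RPS2 had one at bases 489 to 720. Peak positions are counted on RefSeq transcripts, whose starts differ from the GENCODE transcripts used here by up to 347 bases. For 11 members the position could be read in both frames, and the peak's midpoint was coding in both for RPS3, RPS7, RPS9, RPS14, RPS18 and RPSA. For the others the region is not given.

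CLIP and m6A were then set side by side. Of the 13 genes with a CLIP cluster in both replicates, 5 (38.5%) had an m6A peak, among them RPS2, RPS3, RPS27A and RPSA. That was close to the 38.9% of all 36 members. Among all coding genes with a cluster in both replicates the share was 74.2%, without matching for coding length. Read the other way, 5 of the 14 genes with a peak (35.7%) were in both CLIP lists, close to the 36.1% of all 36 members. Over all coding genes in the m6A table the share was 1.46%. GNB2L1 and RPS23, the leading genes of the head and of the body by CLIP, had no listed peak. RPS7, RPS14 and RPS27L had a peak and no CLIP cluster. Clusters were also set against the peaks, with both replicates pooled, so that a shared site counts once per replicate. In both frames, 5 of 7 clusters lay inside the m6A peak in RPSA and 2 of 6 in RPS3. None did in RPS27A (0 of 3), RPS13 (0 of 1) or RPS18 (0 of 1), and for RPS9 and RPS25 the count differed between the frames. For RPS12 the count was 1 of 2 in each frame, but these were not shown to be the same cluster. The share expected from peak length was not worked out. In RPS2, 4 of 10 did in the frame available.

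Genes of the same pathway were counted from lists of known components. Over all coding genes, 1.53% had an exon cluster in replicate 1, 2.62% in replicate 2 and 0.92% in both, and 46.6% had an m6A peak. Of 50 large-subunit protein genes, 18 had an exon cluster in replicate 1, 25 in replicate 2 and 16 (32.0%) in both, beside 36.1% of small-subunit genes, and 29 (58.0%) had an m6A peak. RPL32 had 102 and 112 events and RPL3 35 and 32. Of 30 factors that assemble the small subunit, only the kinase gene CSNK1E was in both CLIP replicates, with 2 and 2 events, while 29 had an m6A peak. Of 19 initiation factors that act on the small subunit, none was in both CLIP replicates, 1 was in each single replicate, and 18 had a peak. Of 13 regulators of TOP mRNAs, LARP1, which binds the TOP tract, was in both replicates with 3 and 3 events, and all 13 had a peak.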

How the data were processed

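Groups were taken from the sample titles. For CLIP, the authors deposited counts of conversion events, 1 per cluster and not normalized, per the file headers. For m6A, the authors deposited a log2 ratio of TRMT10A KD over Ctrl KD, which was tied to no gene: no ratio exceeded that of the line before, and 5.62% of 7442 motif positions lay inside the peak of their own line. The submitters' processing notes name hg38, TopHat2 and Cuffdiff, with no role. The sources used here do not give the cluster and peak callers.

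Clusters placed by the file in CDS or UTRs of coding genes counted as mRNA exon clusters, without histone genes. Counts over coding genes include histone genes. A cluster counted as found in the other replicate when 1 base or more overlapped, strand included. Transcripts and sequences were from GENCODE release 29, with cluster coordinates read as 1-based. Overlap and transcript placing were tested on simulated data (400 of 400 items right in each). Python 3.11.15, numpy 2.4.6, scipy 1.17.1 and matplotlib 3.10.9 were used. The 95% Wilson intervals cover counting error only.

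Members and lists were chosen with earlier results of these data known, and the grouping into head and body was added after the values were seen. Members found by the rule are named except some that are not reported here, though totals and counts include them, and other lists get counts and at most 4 examples. No test was made, since the CLIP samples form 1 group and each knockdown arm has 1 library of a kind. The alternatives tried were event minimums, overlap, denominators, small RNA genes, shared listing, leaving out a replicate, peak length and readthrough genes.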

Additional observations from a re-analysis of the deposited data

How the results depend on the processing

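The 13 genes listed in both replicates fell to 5 with at least 5 events per cluster and to 3 with at least 10. The shares over all coding genes at these minimums were not worked out. The 13 genes were 12 when the clusters had to share a base, an alternative chosen after seeing the data. With 1 replicate left out the count of listed genes was 17 to 18. The share of mRNA exon events, 10.1%, was 0.0526% of all events, 8.60% with histone genes in the denominator, 10.9% without clusters on small RNA genes, 14.9% with at least 5 events per cluster, 7.28% without GNB2L1 (chosen after seeing the data), and 10.0% to 10.2% with 1 replicate left out. Clusters found in the other replicate, 22 and 27, were 21 and 22 with at least 0.5 of the shorter cluster shared. With at least 5 events per cluster, which leaves 14 and 18 clusters, they were 7 and 7. There the matching cluster also had to have at least 5 events, unlike in the counts by cluster size above. The share in coding sequence, averaged over the replicates, was 94.3% to 96.6% with 1 replicate left out. The count of 14 genes with an m6A peak was also 14 with readthrough genes counted. The minimum of 100 bases per peak could not change it, since the shortest of these peaks has 100 bases. No paired analysis was possible because the CLIP replicates form a single group and each knockdown arm has 1 library of each kind. Most member clusters hold 2 to 4 events, so a gene absent from a list was not detectable at this depth and is not shown to be free of contact.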
